A study of Mus musculus with 8 samples.

Results

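The genes described here were 10 transcription factor and immediate-early genes: the Fos family members Fos, Fosb and Fosl2, the Jun family members Jun, Junb and Jund, and Atf3, Egr1, Ier2 and Klf6. They were 10 of the 52661 genes in the deposited tables. They were chosen by symbol, with Fos and Fosb leading the list because both lay under 3 CPM (counts of a gene scaled by library size) in 3 osteopontin libraries, so the difference between the groups in these genes is a description and carries no test. The cells were intraepithelial lymphocytes (IEL), the immune cells lodged between the epithelial cells of the gut, of C57BL/6 mice. They had been sorted by flow cytometry for CD45, a surface protein of leukocytes, and were kept for 24 h at body temperature in serum-containing medium. The 4 osteopontin libraries came from cells given osteopontin at 2 µg/ml, and the 4 null libraries from cells given none. Osteopontin, a phosphorylated secreted protein, acts on cells through integrins and CD44. In both groups the libraries are named 1, 2, A and B. The labels give no genotype beyond the strain, and no age or sex, and they do not say if each library had its own animal or culture. Any p-value thus measures only how these libraries spread, and that spread may be technical.

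Fos and Jun proteins pair through leucine zippers to form AP-1, a dimer that binds short DNA elements in the control regions of many genes. Fos, Fosb, Egr1, Atf3 and Ier2 are immediate-early genes: within minutes of a stimulus, kinase signals act on factors already bound at their promoters, and their short-lived messages soon fade. Jund is present in resting cells, and in T cells AP-1 works with NFAT at cytokine genes. These genes are also known to respond to the handling and enzymatic dissociation of tissue.

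The proximal promoters below are shown because Fos, Fosb, Atf3 and Jun had low levels in the same libraries while Junb and Klf6 varied little. Each is the stretch of 120 bases ending just before the RefSeq start site on GRCm38.p6, written 5′ to 3′ on the strand of the gene. The start site used for Atf3 (191183333) lies inside the span of the gene (191170296 to 191218039, minus strand). Its stretch is thus that of an internal start site and not of the upstream end of the gene. Capitals mark matches, on either strand, to the motifs searched.
Fos, chr12:85473770-85473889, plus strand: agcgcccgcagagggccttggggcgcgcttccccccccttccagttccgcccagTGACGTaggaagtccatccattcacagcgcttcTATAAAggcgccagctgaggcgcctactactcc
Fosb, chr7:19310046-19310165, minus strand: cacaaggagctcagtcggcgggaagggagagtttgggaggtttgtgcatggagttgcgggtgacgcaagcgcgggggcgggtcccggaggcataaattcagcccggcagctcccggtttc
Atf3, chr1:191183334-191183453, minus strand: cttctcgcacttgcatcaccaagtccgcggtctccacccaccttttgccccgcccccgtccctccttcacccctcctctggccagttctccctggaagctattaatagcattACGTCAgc
Jun, chr4:95052223-95052342, minus strand: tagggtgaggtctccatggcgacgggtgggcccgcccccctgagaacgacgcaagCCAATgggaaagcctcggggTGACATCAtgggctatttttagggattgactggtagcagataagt
Junb, chr8:84978749-84978868, minus strand: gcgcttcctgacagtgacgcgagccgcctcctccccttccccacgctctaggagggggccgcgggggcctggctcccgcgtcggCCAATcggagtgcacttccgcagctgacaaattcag
Klf6, chr13:5861369-5861488, plus strand: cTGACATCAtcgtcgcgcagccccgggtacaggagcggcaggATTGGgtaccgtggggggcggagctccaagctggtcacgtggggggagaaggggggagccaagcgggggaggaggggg

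RefSeq windows of 250 bases before to 50 after the start site were at hand for 8 of the 10 genes. Ier2 was among the genes without a window. TGACGT, part of the cyclic AMP response element, which CREB and ATF proteins bind, was in the windows of Fos and Atf3 and in 7.51% of 32851 windows of that length. The related TGACATCA, an element known to bind Jun and ATF2 dimers, was in those of Jun and Klf6 and in 3.62% of windows. TATAAA was in the windows of Fos and Junb (13.6% of windows), and CCAAT in those of Atf3, Jun, Junb and Klf6 (37.4%). The full element TGACGTCA (1.79%), the AP-1 site TGANTCA (7.81%) and the CArG box, which serum response factor binds (1.63%), were in 0 of the 8 windows. Sites more than 250 bases before the start site were not searched, so this does not show that a gene lacks the element. The Atf3 window, around an internal start site, does not reach the upstream end of that gene. These motifs were searched on both strands, and TGACGT lies within TGACGTCA. They were chosen with the sequences in view, and a match is a description and not a binding site. The TATAAA of Junb and the CCAAT of Atf3 lie just after the RefSeq start site, outside the stretches shown. For Junb, on the minus strand, that start site (84978748) is upstream of the start of the gene span given below (84978718). Its TATAAA thus lies before the start by that span, and which start these cells used was not tested.

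The libraries held 49108969 to 71399847 estimated reads, so that 3 reads, the floor set by counting error, corresponded to 0.0420 to 0.0611 CPM. Lymphocyte identity was as labelled: Ptprc (CD45), Cd3e, Cd3g, Cd8a, Cd8b1, Itgae, Trdc and Trac summed to 5859 to 6293 CPM with osteopontin and 5594 to 6040 without. Libraries B of both groups stood apart from the others in their count profiles. The chi-square per gene against any other library was 95.4 to 122.1 for the 13 pairs with a B library and 38.5 to 69.8 for the other 15. Osteopontin library B also had the fewest reads. Fold changes, TPM levels and list counts are therefore also given without it where it moves them.

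The genes spanned a wide range of levels. Levels per transcript length were compared as TPM (the relative number of transcripts after correction for length). In the null libraries Jund led at 197.2 ± 15.3 TPM (SD, n = 4), with every library above those of the next genes. Junb (95.6 ± 9.34) and Klf6 (85.5 ± 6.52) followed with overlapping ranges, then Ier2 at 42.5 ± 7.68, whose 4 libraries overlapped with no other member. Jun (19.7 ± 3.43), Fos (17.4 ± 5.88), Egr1 (12.5 ± 4.90) and Fosb (10.97 ± 6.92) each overlapped with their neighbours in that order, as did Fosb with Atf3 (6.41 ± 2.11). Fosl2 was lowest at 2.41 ± 0.590 TPM, under every null library of the others. With osteopontin the order of Jund, Ier2 and Jun was kept, Klf6 (93 ± 4.60) exchanged places with Junb (88.3 ± 12.4), and Egr1 (6.43 ± 3.63), Atf3 (3.99 ± 3.05), Fos (3.86 ± 7.32), Fosl2 (2.61 ± 1.91) and Fosb (2.43 ± 2.94) followed. The place of Fos rested on library B. Over osteopontin libraries 1, 2 and A it was the lowest of the 10 at 0.200 ± 0.105 TPM (SD, n = 3), under Fosb at 0.964 ± 0.280 and Fosl2 at 1.66 ± 0.257 TPM. Reads on short transcripts, which weigh more in TPM, also enter this order. They were 70.96% of Atf3 reads in osteopontin library A (517 bases) and 34.8% of Fosl2 reads in osteopontin library B (1707 bases). In mean CPM Fosl2 stood at 7.96 with osteopontin and 10.0 without.

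Fos (chromosome 12, 85473890 to 85477273 on GRCm38, as all gene spans here), the founding partner of Jun in AP-1, had 0.224, 0.427, 0.103 and 18.8 CPM with osteopontin (libraries 1, 2, A and B, the order kept for all lists of 4 values). Without osteopontin it had 29.4, 19.1, 25.4 and 15.1 CPM. These values rest on 16, 29, 6 and 928 reads with osteopontin and on 989 to 1823 reads without. Osteopontin library B thus lay inside the null range, and the other osteopontin libraries lay far below it. Between libraries of the same name the null level was 130.8, 44.7 and 247.3 times the osteopontin level for 1, 2 and A, and 0.804 times for B.

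Fosb (chromosome 7, 19302696 to 19310051), a Fos relative with a truncated splice form in many tissues, stood at 1.28, 2.37, 1.44 and 13.1 CPM with osteopontin. It stood at 35.7, 12.2, 33.5 and 8.58 CPM without. As for Fos, library B alone among the osteopontin libraries was inside the null range. The null libraries themselves differed, 1 and A being the highest. The highest was 4.16 times the lowest, a ratio that was 1.27 for the median gene averaging 5 CPM or more. The osteopontin library just inside the 3 CPM used in the choice was library 2, at 2.37 CPM, and the next above was B, at 13.1 CPM.

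Fosl2 (chromosome 5, 32135801 to 32157842), which encodes Fra-2, did not share this pattern. It stood at 6.40, 7.47, 6.97 and 10.98 CPM with osteopontin and at 9.42, 10.4, 6.51 and 13.8 CPM without, and the groups overlapped. The highest library of each group was B.

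**Figure D1:**
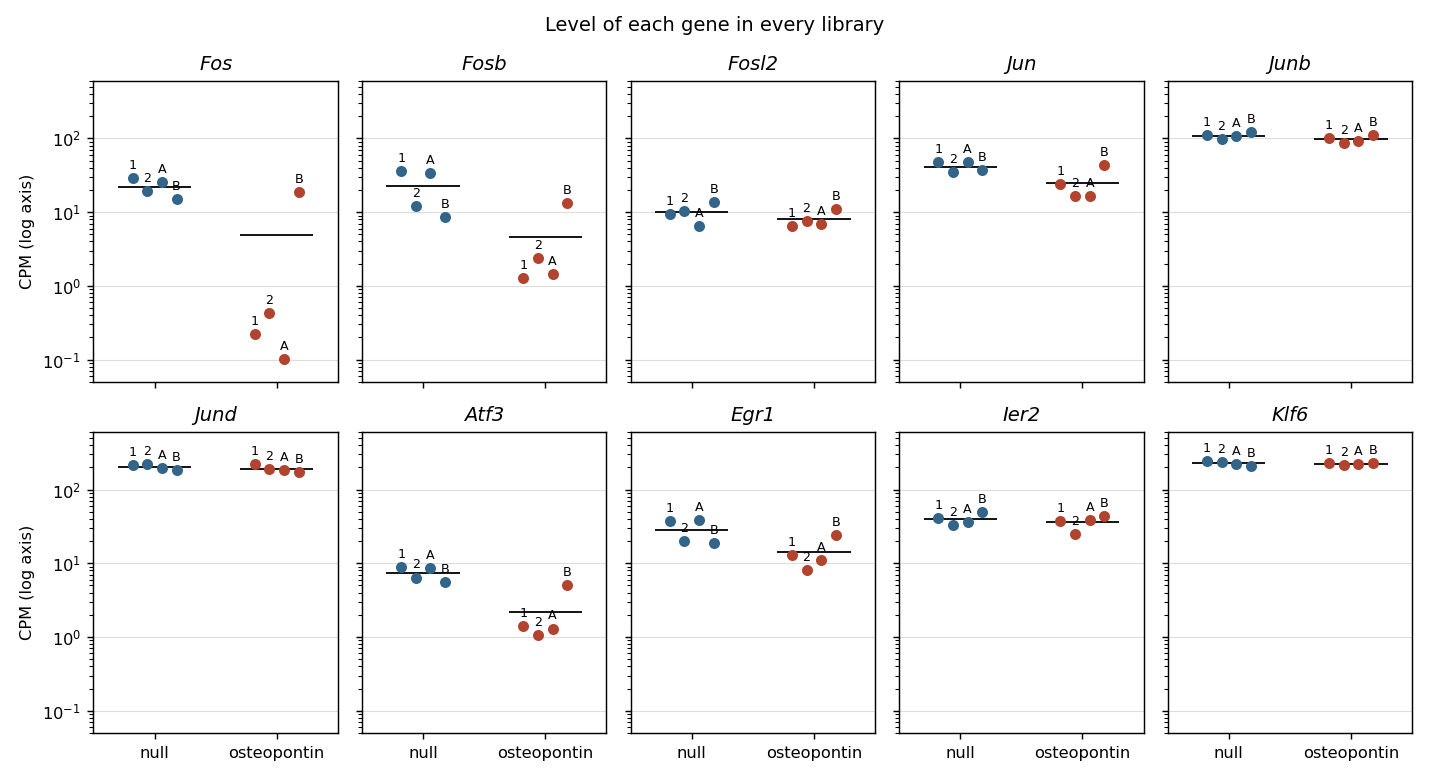
Level of each of the 10 genes in every library, in CPM on a log axis shared by all panels; points are libraries, marked with their names, and bars are group means (n = 4). Fos, Fosb and Atf3 are low in osteopontin libraries 1, 2 and A and high in B, while Junb, Jund and Klf6 are level.

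Jun (chromosome 4, 95049034 to 95052222), an inducible member of the family, stood at 23.8, 16.7, 16.7 and 43.6 CPM with osteopontin. It stood at 47.4, 34.6, 47.5 and 36.8 CPM without. Osteopontin libraries 1, 2 and A again lay under every null library and B did not.

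Junb (chromosome 8, 84974484 to 84978718), a partner of BATF in lymphocytes, stood at 102.3, 86.5, 91.7 and 112.8 CPM with osteopontin and 109.7, 96.9, 106.8 and 120.8 CPM without. It was lower with osteopontin in each of the 4 pairs of same-named libraries, by a ratio of 0.859 to 0.933, but the groups overlapped. Jund (chromosome 8, 70698949 to 70700616), the least inducible of the family, stood at 172.1 to 223.0 CPM with osteopontin and 186.2 to 223.1 CPM without. Osteopontin library B was the lowest of its group for Jund and the highest for Jun.

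Atf3 (chromosome 1, 191170296 to 191218039), a stress-induced factor that pairs with Jun proteins, stood at 1.42, 1.07, 1.30 and 5.01 CPM with osteopontin and at 9.001, 6.40, 8.67 and 5.50 CPM without. It was the 1 member whose groups did not overlap. Among all 18631 tested genes 1.58% were lower with osteopontin without overlap, and since Atf3 shares the contrast on which the list was chosen nothing is read from that count. The osteopontin library nearest the null range was again B, at 0.912 times null library B.

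Egr1 (chromosome 18, 34859823 to 34864984), a zinc finger factor induced through the same kinase signals as Fos, stood at 12.8, 8.21, 11 and 24.0 CPM with osteopontin. It stood at 37.2, 19.9, 38.6 and 18.7 CPM without. Null libraries 1 and A were the highest, as for Fosb, and osteopontin library B exceeded null libraries 2 and B.

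Ier2 (chromosome 8, 84661331 to 84662852), an immediate-early nuclear protein, stood at 25.2 to 44.4 CPM with osteopontin and 33.1 to 48.8 CPM without. Klf6 (chromosome 13, 5861482 to 5870394), a Krüppel-like factor abundant in tissue lymphocytes, stood at 213.8 to 229.8 CPM with osteopontin and 206.7 to 243.2 CPM without. Both overlapped widely between the groups. The highest and lowest of the 8 libraries differed by a factor of 1.18 for Klf6, 1.30 for Jund, 1.40 for Junb and 1.94 for Ier2, against 285.8 for Fos, 27.9 for Fosb, 8.38 for Atf3, 4.70 for Egr1 and 2.85 for Jun.

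All 10 genes entered the fit across all genes with edgeR (quasi-likelihood F test), and 0 of 10 were called (adjusted p below 0.05), as were 0% of the 18631 genes in either direction. Unadjusted p fell below 0.05 for 344 genes fitted higher (1.85%) and 388 fitted lower (2.08%). Atf3 and Egr1 were among the latter, 2 of the 10, from which nothing is read. DESeq2 called 21 genes higher and 59 lower, with 0 of the 10 among them. The fitted log2 fold change, osteopontin over null, was -2.19 for Fos (95% interval -6.20 to 1.81), -2.31 for Fosb (-4.72 to 0.10), -1.75 for Atf3 (-2.76 to -0.74), -1.03 for Egr1 (-1.92 to -0.14) and -0.72 for Jun (-1.47 to 0.02). It was -0.34 for Fosl2 (-0.91 to 0.24), -0.14 for Junb (-0.34 to 0.05), -0.12 for Ier2 (-0.47 to 0.24), -0.09 for Jund (-0.26 to 0.09) and -0.02 for Klf6 (-0.16 to 0.12). Over all 8 libraries the intervals of Fosl2, Junb, Ier2, Jund and Klf6 excluded a change of 2-fold in either direction, whereas that of Fos spanned both directions. Without osteopontin library B Fosl2 had -0.53 (-1.11 to 0.05), which no longer excluded a 2-fold decrease. The intervals of Junb, Ier2, Jund and Klf6 still did.

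The size of these values depended on 1 library. Without osteopontin library B the fold change was -6.44 for Fos, -3.73 for Fosb, -2.55 for Atf3, -1.42 for Egr1 and -1.13 for Jun, and edgeR called Fos, Atf3 and Jun lower, 3 of the 10, where 0.177% of 19815 genes were called lower and 0.0101% higher. Without both B libraries Egr1 was called as well, where 0.247% of 19451 genes were called lower and 0.00514% higher. Because the choice of the genes rested on the libraries that remain, nothing is read from these counts. With the replicate name as a block, Fos had -5.35 and no member was called. Without null libraries 1 and A the fold change was -1.20 for Fosb and -0.47 for Egr1.

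**Figure D2:**
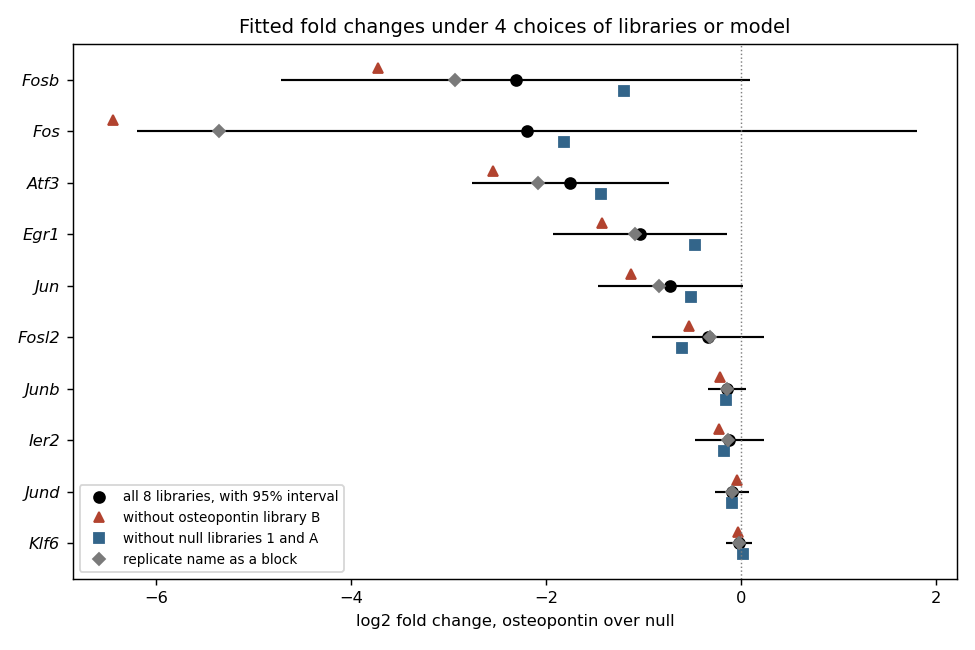
Fitted log2 fold change of each gene, osteopontin over null, with its 95% interval over all 8 libraries (black), without osteopontin library B (triangles), without null libraries 1 and A (squares) and with the replicate name as a block (diamonds). Fos moves from -2.19 to -6.44 without osteopontin library B, while Junb, Jund, Ier2 and Klf6 stay near 0 in each.

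The balance between the families differed between libraries mainly on the Fos side. Summed over Fos, Fosb, Fosl2 and Fosl1, the Fos family stood at 2.33, 3.30, 2.90 and 27.1 TPM with osteopontin and at 44.0, 22.5, 38.1 and 19.8 TPM without. Jun, Junb and Jund summed to 321.3, 270.0, 266.0 and 300.1 TPM with osteopontin and to 303.4 to 329.0 TPM without. The Fos family thus amounted to 0.724%, 1.22%, 1.09% and 9.04% of the Jun family in the osteopontin libraries and to 13.4%, 7.22%, 12.5% and 6.51% in the null libraries. In each library Jund made up the largest part of the Jun family, 58.1% to 68.8% with osteopontin and 59.3% to 67.9% without. Jun made up 3.54%, 2.93%, 2.99% and 7.22% with osteopontin and 5.17% to 7.34% without. In osteopontin libraries 1, 2 and A, Fosl2 was the most abundant Fos family message, at 1.46, 1.95 and 1.57 TPM, and in the other 5 libraries Fos was.

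**Figure D3:**
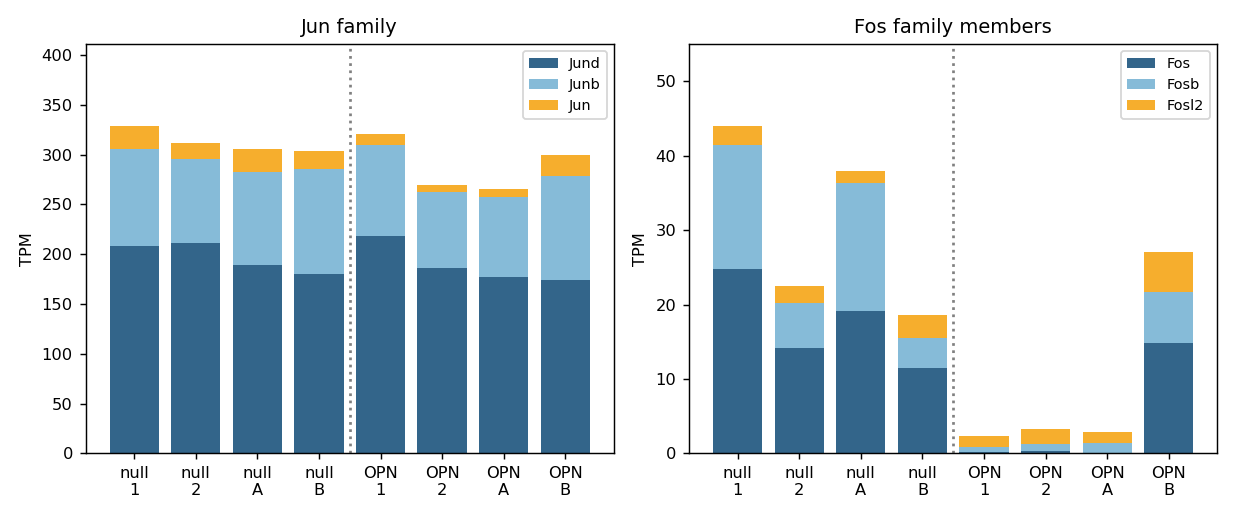
TPM of the Jun family (left) and of Fos, Fosb and Fosl2 (right) in each library, stacked by gene, with OPN for osteopontin; both axes start at 0 and differ in scale. The Jun family stays between 266.0 and 329.0 TPM, while the Fos family is under 4 TPM in OPN libraries 1, 2 and A.

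How a gene's reads were divided among its transcripts is another value than the total that chose the list, but it is not independent of it. Where the total is low, the shares rest on few reads and spread more. For the main coding transcript of Fosb the SD was 34.3 percentage points with osteopontin and 5.40 without. Shares were compared by an exact permutation test over the 70 arrangements of 4 against 4 libraries. It covered 11 transcripts of Atf3, Egr1, Fosb and Fosl2, the genes with at least 30 reads in every library and a transcript with a mean share of 5% to 95%. Of the 11, 0% had an adjusted p under 0.05, and the smallest p was 0.0571 (two-sided exact permutation test, adjusted p = 0.314), where 0.0286 is the smallest this design allows, so that after adjustment over the 11 a single changed share could not have passed. An unadjusted p under 0.05 was found for 0 of them. That smallest p belonged to the main coding transcript of Fosb (3782 bases), which took 46.9%, 0%, 0% and 68.0% of the gene's reads with osteopontin and 61.3% to 73.5% without. Osteopontin libraries 2 and A, at 0%, had 161 and 84 reads on the whole gene. In osteopontin library 2, 81.4% of them went to another coding transcript (3546 bases), which took 0% in every other library.

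The main coding transcript of Atf3 (1984 bases) took 72.6%, 100%, 0% and 79.9% with osteopontin and 95.04% to 100% without. A short noncoding Atf3 transcript (517 bases) took 27.4%, 0%, 70.96% and 20.1% with osteopontin and 0% to 4.96% without (difference of means 28.0 percentage points, exact permutation p = 0.143, adjusted p = 0.314). A read on a short transcript weighs more in TPM. On that scale Atf3 stood at 2.66, 0.854, 4.46 and 8.001 TPM with osteopontin and at 4.36 to 8.90 TPM without, with overlapping groups, and an offset for transcript length brought its fold change from -1.75 to -0.74. The 2 coding transcripts of Egr1 divided its reads similarly in the group means, the shorter one (3036 bases) taking 65.2% ± 18.3 with osteopontin and 62.2% ± 2.42 without (SD, n = 4; exact permutation p = 0.8286, adjusted p = 0.911). A retained-intron transcript of Fosl2 (1707 bases) took 34.8% in osteopontin library B and at most 6.45% in the other 7.

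Likeness of other genes to the profile of Fos was measured over the 8 libraries, as the root mean square difference between log2 CPM profiles centred on their own means, for the 10614 other genes that averaged 5 CPM or more. The median gene was 3.14 from Fos. The nearest outside the list were Col4a1 (0.622) and Sparcl1 (0.635), followed by Sparc, Fbln2, Hspb1, Col4a2, Hspa1b and Ltbp4 (1.09). Col4a1, a chain of basement membrane collagen, stood at 0.140, 0.353, 0.120 and 38.5 CPM with osteopontin and at 17.8, 22.9, 13.3 and 20.7 CPM without. Sparcl1, a secreted matrix-associated protein, stood at 0.112, 0.103, 0.103 and 17.4 CPM with osteopontin and 10.9 to 15.7 CPM without. The inducible chaperone Hspa1b, whose reads cannot be fully told from those of its near copy Hspa1a, stood at 1.33, 2.57, 0.120 and 37.7 CPM with osteopontin and 17.8 to 44.0 CPM without. Each of these 3 genes was low in the same osteopontin libraries as Fos, which their choice by nearness to the Fos profile largely fixed, so nothing is read from it. Within the list the nearest was Fosb (1.53, in place 14 of the 10614), then Egr1 (2.52) and Jun (2.59), and Klf6 (3.12) and Jund (3.14) lay close to the median distance. A flat profile would lie 3.14 from Fos, the root mean square of the Fos profile itself. Atf3 averaged under 5 CPM and was not ranked.

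Markers of non-lymphoid cells, which a sort on CD45 should remove, differed between libraries, and neither the fibroblast nor the endothelial sum alone divided the libraries as Fos did. The 6 fibroblast markers (Col1a1, Col1a2, Col3a1, Dcn, Pdgfra and Lum) summed to 7.46, 6.65, 7.35 and 24.2 CPM with osteopontin and to 288.7, 10.00, 150.7 and 6.29 CPM without. Dcn, a matrix proteoglycan, reached 56.1 CPM in null library 1 and 56.8 in null library A, with 0.154 to 3.44 CPM elsewhere. The 6 endothelial markers summed to 57.8 to 119.9 CPM with osteopontin and 75.4 to 125.6 CPM without, most of it Pecam1, which leukocytes also express. Without Pecam1 (a choice made after the values were seen) the 5 others, Cdh5, Kdr, Plvap, Tie1 and Emcn, summed to 4.50, 0.956, 3.36 and 43.3 CPM with osteopontin and to 4.88, 43.1, 3.89 and 40.7 CPM without. Of these 11 stromal markers 0 were at 0 throughout a group.

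The fibroblast sum was high in null libraries 1 and A, and the endothelial sum without Pecam1 in null libraries 2 and B and osteopontin library B. Osteopontin libraries 1, 2 and A were low in both. Both sums were set beside Fos after the values were seen, and the low Fos of these 3 libraries is what chose the genes, so this is a description of the 8 libraries. Null libraries 1 and A, with the fibroblast transcripts, were also the highest for Fos, Fosb, Jun, Atf3 and Egr1. Whether these cells contributed the Fos, Fosb, Atf3, Egr1 or Jun transcripts was not tested, and in bulk RNA fewer cells of a type and less RNA per cell cannot be told apart. B cell markers summed to 757.6, 504.7, 593.6 and 274.8 CPM with osteopontin and 604.1 to 791.6 without. Macrophage and dendritic cell markers summed to 144.6, 120.2, 99.5 and 77.3 CPM with osteopontin and 84.4 to 147.5 CPM without. Both sums were lowest in osteopontin library B, and any relation of these cells to Fos was not tested. Plasma cell markers ranged from 433.5 to 1029 and from 379.2 to 1099 CPM, and neutrophil and mast cell markers from 494.1 to 592.2 and from 487.8 to 534.9 CPM (nearly all of it Kit, at 486.9 to 592.1 CPM, with S100a8 and S100a9 at 0 in every library and Cpa3 and Ms4a2 at 0 to 1.85 CPM). Enterocyte markers ranged from 39.8 to 74.4 and from 41.8 to 60.9 CPM, most of it Epcam (37.8 to 48.3 CPM). Fabp2 had 10.3 CPM in osteopontin library B and 14.3 CPM in null library B, against 0.870 to 2.25 CPM elsewhere. Fabp1, Apoa1, Alpi and Krt20 were also highest in the B libraries of both groups, while Vil1 was not. Goblet and Paneth cell markers stood at 77.2 CPM in null library B and at 1.04 to 3.43 CPM elsewhere, smooth muscle markers at 0.588 to 3.25 CPM and red cell markers at 0 to 1.96 CPM.

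**Figure D4:**
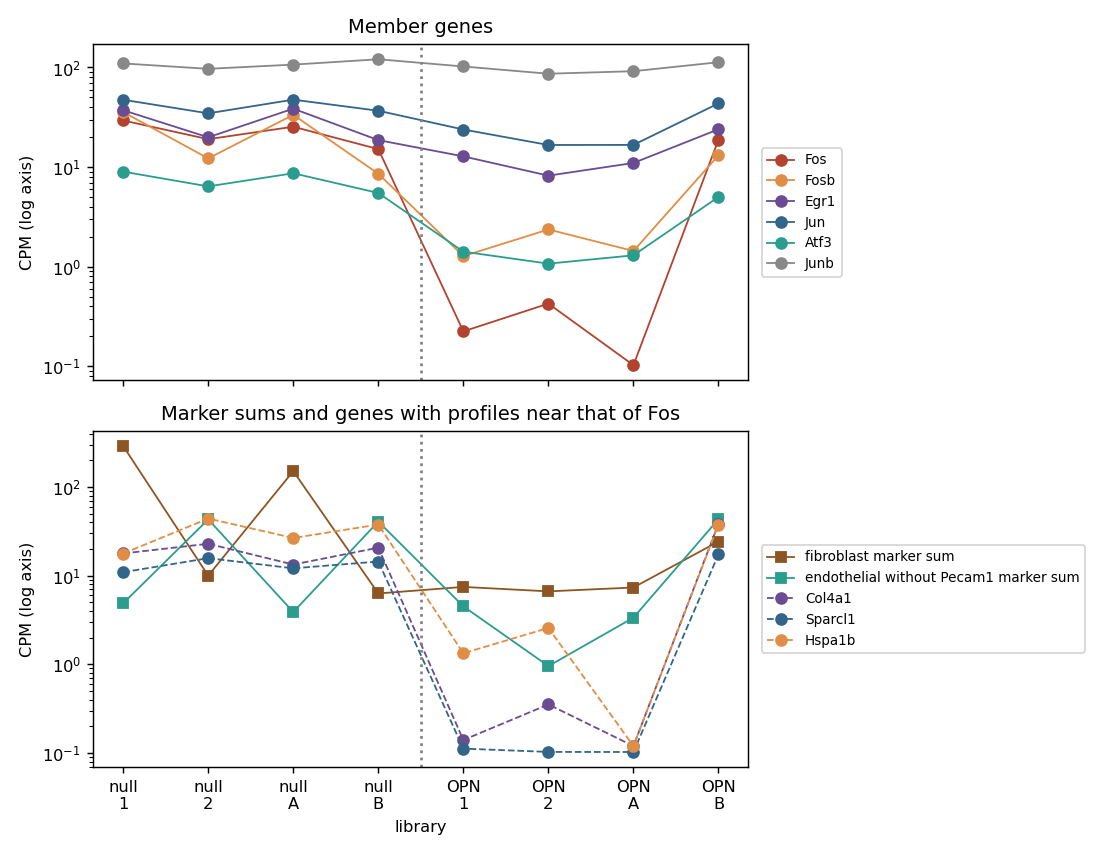
CPM on log axes in each library for 6 of the 10 genes (top) and for 2 marker sums and 3 genes with profiles near that of Fos (bottom); lines join the values of 1 gene or sum, the order of libraries has no meaning, and OPN stands for osteopontin. The fibroblast sum is highest in null libraries 1 and A and the endothelial sum in null 2, null B and OPN B, sums that were set beside Fos after the values were seen.

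The remaining genes of the pathway were described from lists, by counts and medians. All-gene values for comparison were a median log2 fold change of 0.0004 and fitted levels that were higher for 50.1% and lower for 49.9% of the 18631 genes. edgeR called 0 genes of these lists over all 8 libraries, so the values that follow are those of genes that did not pass. For the 10 genes themselves the median was -0.53 and 10 of 10 were fitted lower, which the choice of the genes in part fixed (-0.83 and 10 of 10 without osteopontin library B).

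Upstream of the promoters, 11 of 12 serum response factor and CREB partners were fitted higher, with a median of 0.09. Without osteopontin library B the count was 7 of 12 and the median 0.04. Elk4, a partner of serum response factor at the Fos promoter, had 314.2 ± 7.27 CPM (SD, n = 4) in the osteopontin group and 288.4 ± 24.3 CPM in the null group, the order of the pairs below. Elk1 stood at 27.8 ± 4.40 and 23.1 ± 2.48 CPM, and Crtc1, a CREB coactivator, at 53.2 ± 6.61 and 46.7 ± 6.44 CPM. Of 19 genes of the MAP kinase cascade, 6 were fitted higher and 13 lower (median -0.03). The one without overlap (1 of 19, against 1.58% of all genes that were lower without overlap) was Rps6ka5, the kinase MSK1 that acts on CREB and histone H3 at immediate-early genes, at 19.0, 20.6, 10.2 and 9.77 CPM with osteopontin and 20.97 to 27.2 CPM without. Its libraries were ordered unlike those of Fos, with B the lowest of its group. Hras stood at 20.4 ± 6.01 and 27.0 ± 1.78 CPM and Map2k3 at 59.0 ± 7.16 and 65.4 ± 5.89 CPM.

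Among 13 MAP kinase feedback inhibitors 10 were fitted lower (median -0.14), and 8 without osteopontin library B (median -0.07). Dusp1, a phosphatase that is itself an immediate-early gene, stood at 10.8, 12.2, 10.1 and 19.0 CPM with osteopontin and 15.9 to 17.7 CPM without. As for Fos, libraries 1, 2 and A lay under the null range and B did not. Spry1 stood at 0.641 ± 0.619 and 1.53 ± 0.517 CPM, with 0 reads in osteopontin library A, and Dusp2 at 30.9 ± 5.53 and 34.4 ± 5.10 CPM. In the list named for inhibitors and degraders of the member proteins, 4 of 5 genes were fitted lower (median -0.10). Fbxw7, the ubiquitin ligase subunit that marks Jun for destruction, stood at 51.8 ± 5.51 and 56.8 ± 5.26 CPM. The Egr1 corepressor Nab2 stood at 29.1 ± 4.66 and 33.3 ± 8.23 CPM. Cops5, the Jun-binding subunit of the COP9 signalosome, stood at 49.2 ± 6.97 and 52.9 ± 8.78 CPM. The name of the list does not cover Cops5, a binding partner of Jun.

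Among other immediate-early genes 19 of 23 tested were fitted lower, with a median of -0.22. Without osteopontin library B 19 of 24 were, with a median of -0.19. In that fit edgeR called Klf4 and Cyr61 lower, 2 of the 24, where 0.177% of 19815 genes were called lower. These list values were chosen after seeing the data, and nothing is read from that count. Over all 8 libraries the groups did not overlap for 4 of the 23, all lower, against 1.58% of all genes. Zfp36, which promotes the decay of messages such as that of Tnf, stood at 84.5, 75.9, 83.0 and 83.6 CPM with osteopontin and at 106.7, 94.0, 107.1 and 110.3 CPM without (log2 fold change -0.35, SE 0.08). Here osteopontin library B was as low as the others, unlike Fos. Klf4 stood at 2.48, 0.559, 1.73 and 7.39 CPM and at 10.5 to 15.6 CPM, and in this gene library B was the highest of its group. Ctgf, a matrix protein of fibroblasts and endothelium, was under 0.5 CPM in every osteopontin library, and had 8.20, 0.361, 5.26 and 0.551 CPM without osteopontin. The others without overlap, named here for completeness, were Cyr61 (0.0702, 0.0588, 0 and 2.96 CPM against 4.41 to 6.92) and Gadd45g (1.26 to 3.92 against 3.95 to 5.10 CPM).

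Of 12 other AP-1 relatives, 10 were tested, with 5 fitted higher and 5 lower (median -0.02), and Fosl1 and Batf2 were too low to test. Atf7 stood at 98.96 ± 7.45 and 87.6 ± 12.5 CPM, Mafk at 60.8 ± 5.77 and 68.3 ± 9.66 CPM, and Atf2, the partner of Jun at TGACATCA, at 72.7 ± 7.04 and 67.2 ± 0.776 CPM. The Batf genes, which pair with Junb in lymphocytes, summed to 44.5 ± 5.45 TPM with osteopontin and 49.4 ± 7.69 TPM without.

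Among 16 genes with known AP-1 sites 13 were fitted lower (median -0.28), 2 lower (1.58% of all genes were) and 1 higher without overlap. Metallothionein Mt1 stood at 2.05, 1.00, 2.04 and 0.142 CPM and at 2.15 to 7.03 CPM, and the intermediate filament gene Vim at 122.8, 108.6, 106.1 and 70.5 CPM and at 127.9 to 143.4 CPM, both lowest in osteopontin library B. Ifng, the one that was higher without overlap (1.89% of all genes were), stood at 2.37 to 3.30 CPM with osteopontin and at 0.0766 to 2.34 CPM without. The early activation marker Cd69 stood at 24.4 and 26.6 CPM in the group means. Heat shock chaperones differed within their list: 7 of 10 were fitted lower (median -0.08), with Hspa1a at -1.58 (95% interval -5.37 to 2.21), Hspa1b at -1.60 (-5.20 to 2.00), Hspb1 at -1.70 (-6.26 to 2.85) and the others between -0.24 and 0.02. Library B set the size of these 3 values: without it they were -5.41, -4.54 and -6.81. In that fit edgeR called Hspa1a and Hspb1 lower (adjusted p = 0.0085 and 0.0150), though not Hspa1b (adjusted p = 0.698). There 0.177% of 19815 genes were called lower. Hspa1b and Hspb1 were named for a profile near that of Fos, and these list values were chosen after seeing the data. Nothing is read from these calls. Among the other chaperones Hspe1 stood at 27.4 ± 2.84 and 32.3 ± 4.8 CPM and Hsp90aa1 at 156.3 ± 5.91 and 166.9 ± 9.10 CPM.

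**Figure D5:**
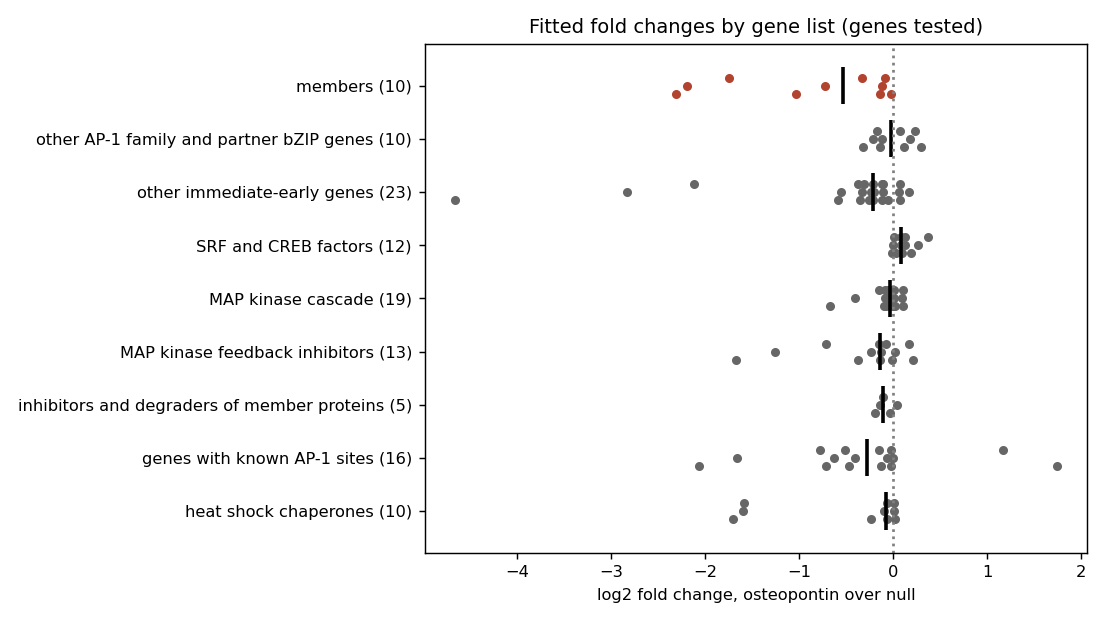
Fitted log2 fold change, osteopontin over null, of every tested gene (points) in each list, with the list median as a black bar and the number of genes tested in parentheses; genes are spread vertically so that they can be seen. Most points of the other lists lie near 0, and the 10 members have the lowest median.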

How the data were processed

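RNA of CD45-sorted mouse IEL was sequenced in 8 libraries (4 osteopontin, 4 null). The authors deposited 1 Salmon transcript table per library, Salmon being named in the submitters' processing notes, with estimated counts, TPM and effective lengths per the file headers. For the Salmon version, transcript release and build the sources used here give nothing. Of the 133618 transcripts, 98.2% had the same identifier and length in GENCODE M21 (GRCm38), including every transcript of the 10 genes, and gene spans come from it. Promoters come from RefSeq on GRCm38.p6.

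Deposited estimated counts were summed per gene and rounded, filtered with filterByExpr (minimum count 10) and scaled by TMM. Levels are CPM on the scaled totals. The deposited TPM values were summed per gene and used for levels between genes, with no test. Groups were compared with edgeR 4.0.16 (robust quasi-likelihood F test, two-sided, Benjamini-Hochberg over 18631 genes, group as the only term). On simulated counts of this comparison (17296 genes, 100 changed at each size, drawn from those above 5 CPM) it called 74.0% of 2-fold and 95.0% of 4-fold changes. No simulated library was set apart from its group, so these rates do not hold for genes such as Fos, where 1 library was. DESeq2 1.42.0 and limma 3.58.1 (voom) were alternatives. Standard errors are the fold change over the square root of F. Depth limits precision to the stated floor of 3 reads, which covers counting error only.

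The members, lists and tests were chosen with earlier results of these data known. The rule for named genes took the 10 members, the 3 genes with the smallest p per list among those averaging 1 CPM or more, and the 8 genes nearest to Fos in profile, leaving out predicted genes, pseudogenes and receptor segments. Hspa1a, Cd69, Cyr61, Gadd45g, Fosl1 and Batf2 were named after their values were seen. Libraries of the same name deviated together from their group means (correlations 0.133, 0.204, 0.184 and 0.216 for 1, 2, A and B over genes, where genes are not independent), a pairing that comes from the data and not from the labels. The block on the name is an alternative, as are other scalings, filters and covariates, a length offset and leaving out libraries.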

Additional observations from a re-analysis of the deposited data

Results flagged for a closer look

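Among 112 groups of 4 libraries checked for a value set apart (a gap to its neighbour, as a share of the group's range, above Dixon's 95% critical value), 20 had one, and chance gives about 1 in 20 groups. Most of these were osteopontin library B standing above the other 3. It did so for Fos (18.8 CPM, the next at 0.427), Fosb (13.1, next 2.37) and Atf3 (5.01, next 1.42), and for the summed Fos family (27.1 TPM, next 3.30). The same library was set apart upward for Col4a1 (38.5 CPM), Col4a2 (22.7), Sparc (19.4), Sparcl1 (17.4), Ltbp4 (23.3), Fbln2 (5.14), Ctgf (0.487), Hspa1b (37.7), Hspb1 (11.2) and Cops5 (59.6). It was also set apart for the fibroblast marker sum (24.2 CPM, next 7.46), the endothelial sum without Pecam1 (43.3, next 4.50) and the enterocyte sum (74.4, next 43.7). Hspb1 in null library 2 (12.5 CPM) and the goblet and Paneth cell sum in null library B (77.2 CPM) were set apart upward, and Hspe1 in osteopontin library A (23.2 CPM) downward. These flags cannot be set against that rate. Fos and Fosb, and with them the Fos family sum, were chosen because 3 osteopontin libraries were low, and the 8 genes nearest to Fos for sharing its profile.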

How the results depend on the processing

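Directions held for most members. Over 18 alternatives Fos ranged from -6.59 to -1.79, Fosb from -4.00 to -1.20, Atf3 from -2.67 to -0.74, Egr1 from -1.58 to -0.47, Jun from -1.18 to -0.51, Junb from -0.22 to -0.09 and Jund from -0.17 to -0.04, as log2 fold changes with 0 reversals. For Fos and Fosb the choice of the genes largely fixed the sign. No alternative left out more than 1 of the 3 low osteopontin libraries, so nothing is read from their kept direction. Fosl2 turned to 0.060 with the length offset, and Ier2 to 0.022 without osteopontin library 2 (-0.23 at the lowest, without osteopontin library B). Klf6 turned to 0.087 with the offset, 0.0010 without osteopontin library 2, 0.012 without null library 1 (-0.062 without null library B) and 0.021 without null libraries 1 and A. Members were called in 2 of the alternatives, those without osteopontin library B (3) and without both B libraries (4). The 2 alternatives that leave out pairs of libraries, and the list values without osteopontin library B, were chosen after seeing the data. Over all genes, edgeR with no filter called 3 higher and 1 lower, DESeq2 21 higher and 59 lower, and the fit without both B libraries 1 higher and 48 lower. Leaving out 1 library at a time gave 0 to 2 higher and 0 to 35 lower, the most without osteopontin library B (2 higher and 35 lower). Null library 1 gave 1 higher, and osteopontin library 2 and null library 2 gave 1 lower each, when left out. With the replicate block 0 genes were called higher and 0 lower, as without it. Isoform shares could not reach the threshold with the block, whose smallest possible p was 0.125, so their 0 calls there say nothing. They had 0 calls in the other alternatives, with a smallest adjusted p of 0.0571 to 0.566 when 1 library was left out. With 4 libraries a group, the interval of Fos spans both directions.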
